A study of Sus scrofa with 6 samples.

Results

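The receptors through which estradiol and progesterone act were followed in the hypothalamus, pituitary and ovary of sows in estrus and in anestrus. The genes were chosen by symbol: ESR1, ESR2, PGR and GPER1. A row was kept where its name, with any trailing hyphen and number removed, was one of these 4 symbols. This gave 5 rows of the 19465 genes listed, because ESR1 was listed under 2 gene identifiers.

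ESR1 and ESR2 encode the nuclear estrogen receptors alpha and beta, and PGR encodes the nuclear progesterone receptor. These are ligand-activated transcription factors that are held by chaperones, bind DNA after taking up the hormone and recruit coactivators or corepressors. PGR is itself a classical target of estrogen-bound ESR1. GPER1 encodes a membrane G protein-coupled receptor that responds to estradiol through cyclic AMP and transactivation of the epidermal growth factor receptor. In the hypothalamus and pituitary these receptors carry the feedback of ovarian steroids on gonadotropin secretion. In the ovary, ESR2 is the form usually associated with granulosa cells, ESR1 with theca, stroma and surface epithelium, and PGR is induced in granulosa cells around ovulation.

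The animals were Landrace x Large White primiparous sows, that is, sows after their first litter. The estrous sows had a normal estrus, and the anestrus of the other sows came from inactive ovaries. Whole organs were frozen, and 1 TruSeq RNA library was sequenced per tissue and state, 6 in all. The labels give 3 sows per state but do not say whether their RNA was pooled, so each value below comes from 1 library and no test between the states was possible within a tissue. Intervals given with ratios and levels cover counting error only, from reads without molecular identifiers, and hold nothing of the variation between animals.

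Library totals ran from 15314325 to 17384789 reads, so the receptors were counted at similar depth throughout. The labelled tissues matched their granulosa, lactotroph and somatotroph, and neuron markers. Summed granulosa markers, with 7 of 8 found, stood at 7126 and 1420 RPM (the reads of a gene scaled to the same total in every library) in the estrous and anestrous ovary and at 15.7 to 20.1 in the other libraries. Lactotroph and somatotroph markers, with 4 of 4 found, stood at 189253 and 222970 RPM in the estrous and anestrous pituitary. Neuron markers, with 7 of 8 found, stood at 3510 and 4695 RPM in the estrous and anestrous hypothalamus and at 4.78 to 558 in the other libraries. The sum of hypothalamic neuropeptide markers did not set the hypothalamus apart, with 47554 and 18928 RPM in the estrous and anestrous pituitary. The list includes POMC, and corticotroph and melanotroph markers, which also include it, summed to 47698 and 18999 RPM there. By number the neuropeptide markers did set it apart. All 13 found reached the mean normalised count required below in the hypothalamus, against 5 in the pituitary and 3 in the ovary. KISS1, GHRH and SST had 0 reads in both pituitary libraries. Neuropeptide markers, with 13 of 14 found, stood at 2018 and 1031 RPM in the estrous and anestrous hypothalamus. Thalamus markers, with 8 of 9 found, stood there at 265 and 624. The 2 hypothalamic libraries therefore did not hold the same mix of regional markers.

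The main ESR1 row (ENSSSCG00000025777) had the most reads of the receptor rows in all 6 libraries. The hypothalamus held 220 reads of it in estrus and 168 in anestrus. The pituitary libraries held 1028 reads in estrus and 1236 in anestrus. The ovarian libraries held 1951 reads in estrus and 388 in anestrus. Scaled to each library's own total, the levels were 14.4 and 10.6 RPM in the estrous and anestrous hypothalamus, 60.4 and 71.1 for the pituitary, 126 and 23.6 for the ovary. The tissues were normalised separately by the authors, so these levels, computed from the recovered reads, were the scale used across tissues. The order was estrous ovary, anestrous pituitary, estrous pituitary, anestrous ovary, estrous hypothalamus and anestrous hypothalamus, and no neighbours in it had overlapping 95% Poisson intervals.

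The tissue with the highest ESR1 level thus depended on the state. In estrus the ovary stood 2.08-fold above the pituitary (95% interval 1.93 to 2.25). In anestrus the pituitary stood 3.01-fold above the ovary (2.69 to 3.38). With both states pooled, the ovary and pituitary were close, at a ratio of 1.11 (1.05 to 1.18), and the ovary stood 5.88-fold above the hypothalamus (5.28 to 6.56). RPM depends on what else a library holds, and lactotroph and somatotroph markers alone took 189253 and 222970 RPM in the estrous and anestrous pituitary. The ratios between tissues given here and below were not corrected for this, and their intervals do not cover it. A ratio as near 1 as 1.11 therefore does not order the 2 tissues.

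**Figure D1:**
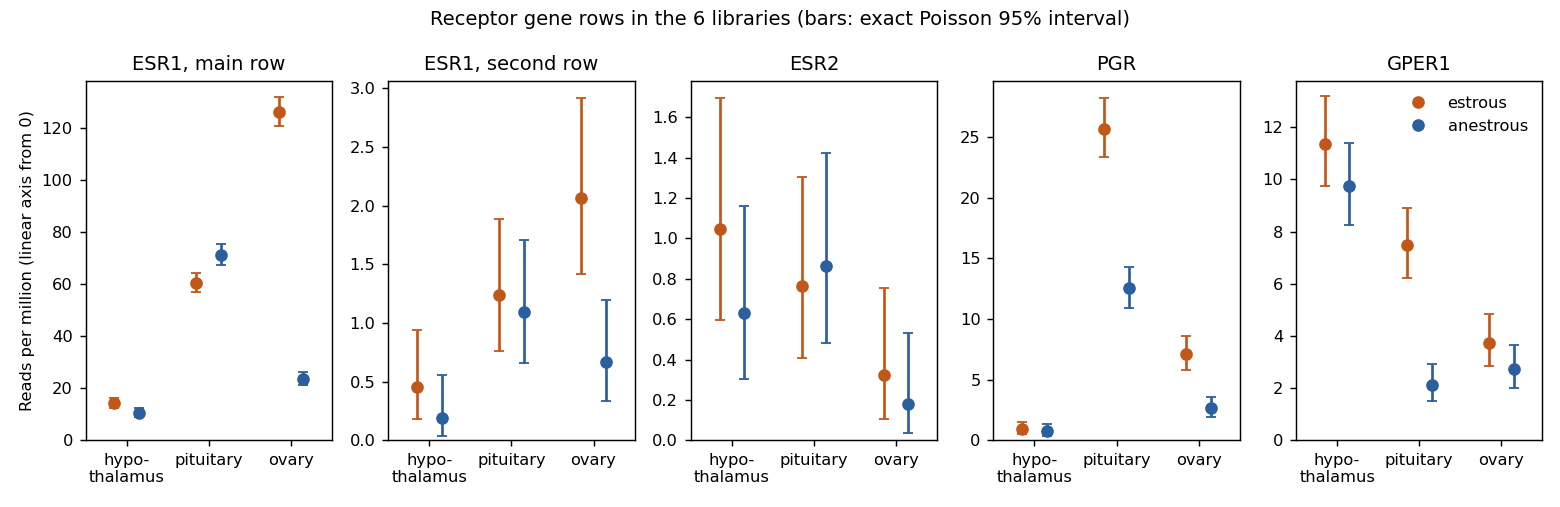
RPM (linear axes from 0, one scale per panel) of each receptor row in the 6 libraries, by tissue, with estrous libraries in orange and anestrous libraries in blue; bars are exact Poisson 95% intervals. The main ESR1 row is highest in the estrous ovary at 126, PGR in the estrous pituitary at 25.7 and GPER1 in the estrous hypothalamus at 11.4.

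The second ESR1 row (ENSSSCG00000004084) carried 3 to 32 reads per library. Its reads were 7 and 3 in the estrous and anestrous hypothalamus, 21 and 19 in those of the pituitary, 32 and 11 in those of the ovary. It made up between 1.51% and 3.08% of the reads of both ESR1 rows, and the exact (Clopper-Pearson) 95% intervals of these 6 shares overlapped. The 2 rows were highest in the same library, the estrous ovary. For the second row, its ratio to the estrous pituitary was 1.67, with an interval (0.936 to 3.05) that included 1. The sources used here do not say how the authors' counting divided ESR1 reads between the 2 identifiers, which leaves each row's values uncertain to that extent.

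ESR2 was the sparsest of the 4 receptor genes. It had 16 and 10 reads in the estrous and anestrous hypothalamus, 13 and 15 in those of the pituitary, 5 and 3 in those of the ovary. In RPM these were 1.04 and 0.632, 0.764 and 0.863, and 0.323 and 0.183. The ovary, with 8 reads in all, was the lowest tissue. With both states pooled, the hypothalamus stood 3.33-fold above it (1.47 to 8.52) and the pituitary 3.25-fold (1.44 to 8.25), while hypothalamus and pituitary had a ratio of 1.03 (0.578 to 1.82). Within a state this was less sure. The ratio of pituitary to ovary in estrus (0.792 to 8.48) and that of hypothalamus to ovary in anestrus (0.892 to 19.6) had intervals that included 1. The intervals of the other state for each pair did not. All neighbours in the order of the 6 libraries had overlapping intervals. The low ESR2 count was seen in ovarian libraries in which every one of the 7 granulosa markers found was detected.

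PGR was a pituitary transcript first. The pituitary held 437 reads in estrus and 218 in anestrus. The ovary held 110 and 44 reads, and the hypothalamus 14 and 12. In RPM the pituitary stood at 25.7 and 12.5, the ovary at 7.10 and 2.68, and the hypothalamus at 0.914 and 0.759. Every library of the pituitary lay above every library of the ovary, and those above both of the hypothalamus. With the states pooled, the pituitary stood 22.8-fold above the hypothalamus (15.4 to 35.2) and 3.95-fold above the ovary (3.31 to 4.74). Only the 2 hypothalamic libraries, lowest in the order, were neighbours with overlapping intervals.

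GPER1 followed another order, with the hypothalamus highest. It had 174 and 154 reads in the estrous and anestrous hypothalamus, 127 and 37 in those of the pituitary, 58 and 45 in those of the ovary. In RPM these were 11.4 and 9.74, 7.47 and 2.13, and 3.74 and 2.74. With the states pooled, the hypothalamus stood 2.21-fold above the pituitary (1.83 to 2.68) and 3.27-fold above the ovary (2.61 to 4.12). Within the order of the 6 libraries, the only neighbours whose Poisson intervals did not overlap were the estrous pituitary and the estrous ovary, at a ratio of 1.99 (1.45 to 2.77). Overlap is the stricter rule: the anestrous hypothalamus and the estrous pituitary overlapped, yet their ratio of 1.30 (1.02 to 1.66) had an interval above 1. The 3 lowest libraries, both of the ovary and the anestrous pituitary, lay within a factor of 1.76 (1.15 to 2.73).

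The states were then compared within each tissue, on the authors' normalised counts. A log2 fold divides the anestrous by the estrous value after adding a pseudocount of 1 to each, and is negative where the anestrous library was lower. A row was counted as different from a fold of 2 upward, provided that the mean of its normalised counts reached 10. The ratio of the 2 libraries is also given directly, with its exact interval. Each fold is a difference between single libraries, not between groups of sows. The authors' p-values quoted below likewise rest on 1 library per state and do not measure variation between sows.

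In the ovary, receptor transcripts were lower in the anestrous library. All 5 rows had a ratio below 1, and 3 of the 4 rows that reached the mean of 10 passed the 2-fold limit: both ESR1 rows and PGR. Among all 13193 ovarian genes over that level, 10.7% were lower by that rule and 13.6% higher, and no receptor row was higher. The 2 ESR1 rows belong to 1 gene symbol, so the count covers 2 receptor genes.

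ESR1 showed the largest of these differences. The main row was 4.64-fold lower in the anestrous ovary (4.16 to 5.19), a log2 fold of -2.21. Only 242 ovarian genes, 1.83% of those tested, were at least as low. In the authors' deposited table its p-value was 0.00374 and its adjusted p-value 0.231. The second ESR1 row was 2.68-fold lower (1.32 to 5.90), and its 11 anestrous reads leave that ratio wide.

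PGR was 2.31-fold lower in the anestrous ovary (1.61 to 3.35), a log2 fold of -1.19, with 8.25% of ovarian genes at least as low. The authors' deposited table gives it an adjusted p-value of 1. GPER1 had a ratio of 0.841 (0.557 to 1.26) and ESR2, below the level of 10, a ratio of 0.650 (0.101 to 3.34). Both intervals included a ratio of 1. That of GPER1 left out a 2-fold difference in either direction, and that of ESR2, with 5 and 3 reads, did not.

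Cell markers also differed between the 2 ovarian libraries. In the anestrous ovary 6 of the 7 granulosa markers found were at least 2-fold lower, with a median log2 fold of -1.70. All 3 theca markers found were lower, and their sum went from 4650 to 376 RPM. Stroma and smooth muscle markers went from 7922 to 4283, with 3 of 6 at least 2-fold lower and 1 higher, and macrophage markers from 627 to 1084, with 4 of the 6 over the level of 10 at least 2-fold higher. None of the markers of these 4 lists stood at 0 in either ovarian library. Oocyte markers, with 6 of 6 found, went from 170 to 52.4 RPM, with 4 of the 5 over the level of 10 at least 2-fold lower. Epithelium and oviduct markers, with 6 of 7 found, went from 72.3 to 33.4, with 3 of 4 lower and EPCAM higher. Luteal markers, with 4 of 4 found, did not share one direction: they went from 4088 to 3276 RPM, with 2 at least 2-fold higher and 2 lower. In bulk samples fewer cells of a type and less RNA per cell cannot be told apart, and the part of the marker shifts in the ESR1 and PGR values was not tested.

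In the pituitary the 3 well-counted receptors went different ways. GPER1 was 3.24-fold lower in the anestrous library (2.23 to 4.81), a log2 fold of -1.67. It was the 1 row of 5 over the level of 10 that was at least 2-fold lower, against 4.23% of all 13144 pituitary genes, and no row was higher, against 2.27%. Only 154 pituitary genes, 1.17%, were at least as low as GPER1. The authors' deposited table gives it a p-value of 0.00503 and an adjusted p-value of 0.339.

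PGR was 1.89-fold lower in the anestrous pituitary (1.60 to 2.24), a log2 fold of -0.92 that lies just inside the 2-fold limit. It passed that limit, at -1.03, when the library totals were made equal. In the authors' deposited table its p-value was 0.0196 and its adjusted p-value 0.725. ESR1, by its main row, was higher by a ratio of 1.27 (1.17 to 1.39), a log2 fold of 0.35. For the second ESR1 row the ratio was 0.959 (0.488 to 1.87) and for ESR2 1.22 (0.543 to 2.79), and neither interval left out a ratio of 1.

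The pituitary markers also differed between the states. Corticotroph and melanotroph markers went from 47698 RPM in estrus to 18999 in anestrus, with 3 of the 4 found at least 2-fold lower. Gonadotroph markers went from 11872 to 17645, with 1 of the 3 found at least 2-fold higher and 1 lower. Thyrotroph markers, 2 of 2 found, went from 284 to 134. None of the markers of these lists stood at 0 in the pituitary, and their part in the GPER1 and PGR values was not tested.

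In the hypothalamus no receptor row over the level of 10 differed by 2-fold. All 5 ratios were below 1, and 0 of the 4 rows over the level of 10 were at least 2-fold lower or higher, where 2.61% and 1.99% of all 13587 genes were. ESR1, by its main row, was 1.27-fold lower in the anestrous library (1.03 to 1.56), and its interval was the only one that left out a ratio of 1. GPER1 had a ratio of 0.913 (0.731 to 1.14), so a difference of more than 1.37-fold downward lies outside its counting interval. PGR had a ratio of 0.885 (0.374 to 2.06) and ESR2 of 0.645 (0.262 to 1.51), and with 10 to 16 reads per library both intervals held a 2-fold decrease as well as no difference. The second ESR1 row, below the level of 10 with 7 and 3 reads, was 2.26-fold lower by the direct ratio, with an interval (0.516 to 13.5) that included no difference. The shift of neuropeptide and thalamus markers stands beside these values, with 8 of 13 neuropeptide markers at least 2-fold lower, 2 higher, and 6 of 8 thalamus markers at least 2-fold higher, and its part in them was not tested.

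**Figure D2:**
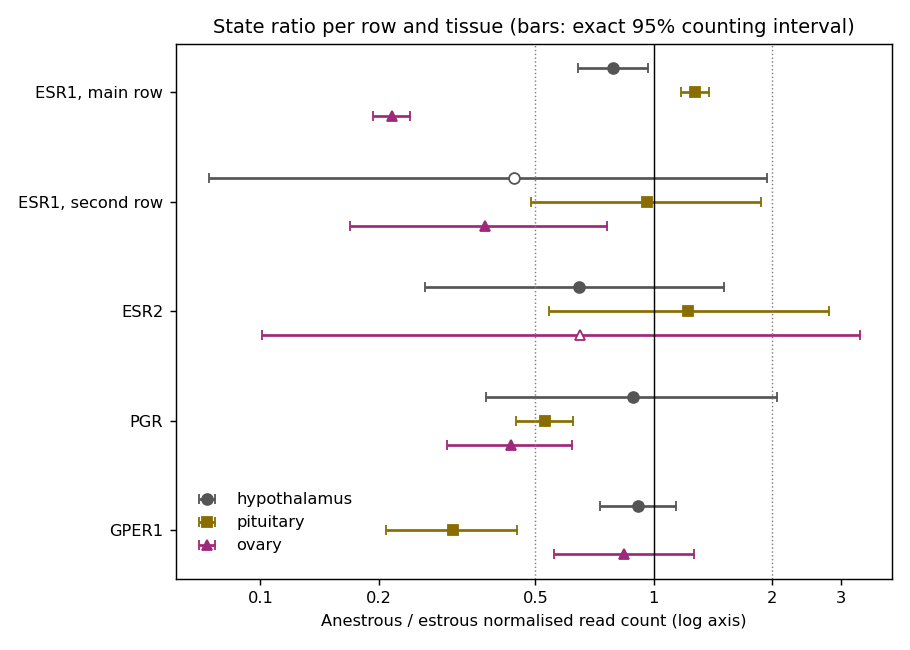
Ratio of the anestrous to the estrous normalised count (log axis) for each receptor row, with 1 marker per tissue; bars are exact 95% counting intervals, dotted lines mark 2-fold, and open markers are rows with a mean below 10. GPER1 lies below 2-fold in the pituitary at 0.309, and both ESR1 rows and PGR lie below it in the ovary at 0.216, 0.373 and 0.433.

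ESR1 was the receptor whose direction differed between tissues with intervals on both sides of 1. Its ratio was above 1 in the pituitary and below 1 in the hypothalamus and ovary. PGR and GPER1 had ratios below 1 in all 3 tissues, but the interval of PGR in the hypothalamus and those of GPER1 in the hypothalamus and ovary included 1. GPER1 stood lowest in the pituitary, at 0.309, and ESR1 in the ovary, at 0.216. Whether the state differences themselves differed between tissues was not tested.

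**Figure D3:**
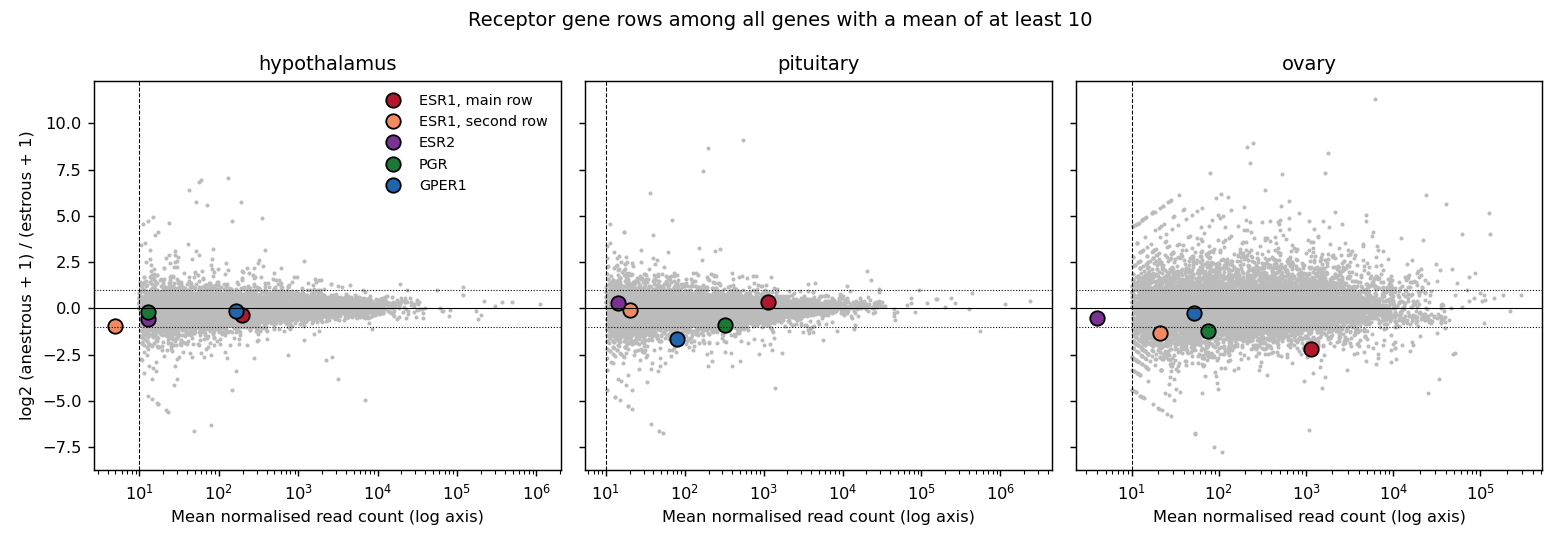
Each grey point is a gene with a mean normalised count of at least 10, placed by that mean (log axis) and by its log2 fold, anestrous over estrous; large points are the receptor rows and dotted lines mark 2-fold. The main ESR1 row at -2.21 in the ovary and GPER1 at -1.67 in the pituitary lie below the lower 2-fold line.

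Ratios between receptors within a library do not depend on how the libraries were scaled. They do depend on transcript length, so only their change between libraries can be read. In the ovary there were 17.7 ESR1 reads of the main row per PGR read in estrus (14.6 to 21.7) and 8.82 in anestrus (6.45 to 12.3). In the pituitary the same ratio went the other way, from 2.35 in estrus (2.1 to 2.64) to 5.67 in anestrus (4.91 to 6.58). In the hypothalamus it was 15.7 (9.17 to 29.2) and 14.0 (7.81 to 27.6), with wide overlapping intervals.

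ESR1 relative to GPER1 also changed in opposite directions. In the pituitary it went from 8.09 ESR1 reads per GPER1 read in estrus (6.73 to 9.81) to 33.4 in anestrus (24.1 to 47.7). In the ovary it went from 33.6 (25.9 to 44.5) to 8.62 (6.32 to 12). The anestrous pituitary and the estrous ovary thus had nearly the same ratio, as did the estrous pituitary and the anestrous ovary. In the hypothalamus the ratio stayed near 1, at 1.26 (1.03 to 1.55) and 1.09 (0.871 to 1.37). PGR per GPER1 was 3.44 in the estrous and 5.89 in the anestrous pituitary, 1.90 and 0.978 in the ovary, and 0.0805 and 0.0779 in the hypothalamus.

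**Figure D4:**
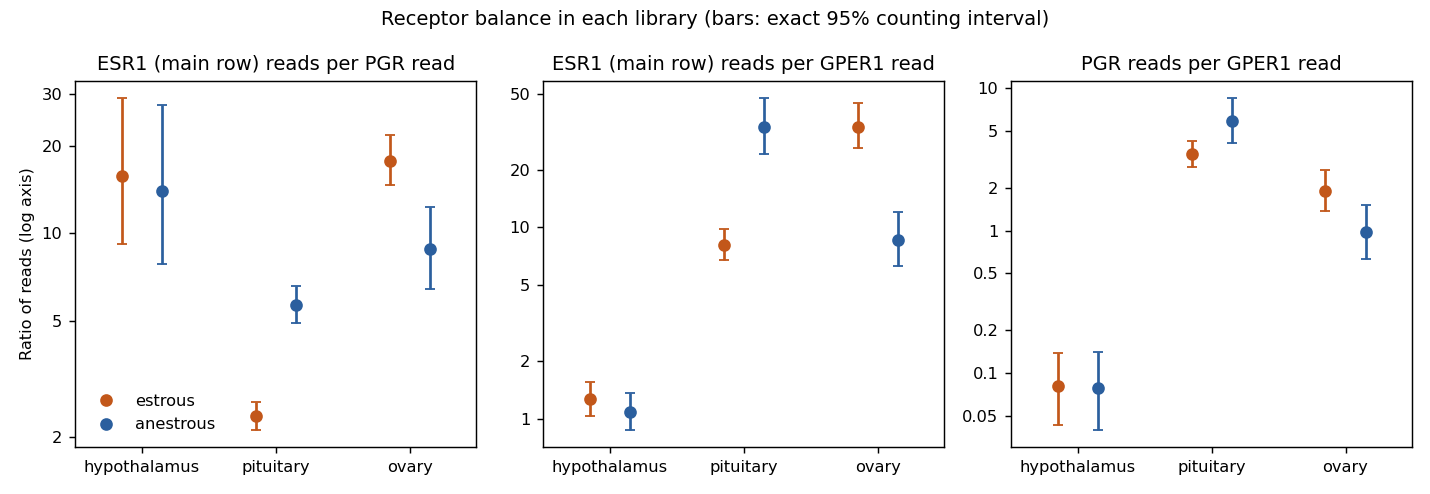
Reads of one receptor per read of another (log axes) in each library, estrous in orange and anestrous in blue, by tissue; bars are exact 95% counting intervals. ESR1 reads per GPER1 read are higher in anestrus in the pituitary (8.09 and 33.4) and lower in anestrus in the ovary (33.6 and 8.62).

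Lists of genes that work with these receptors were read in the same way, by their counts and medians. The median log2 fold over all genes tested was -0.0016 in the hypothalamus, -0.0025 in the pituitary and 0.0054 in the ovary. The shares of all genes at least 2-fold higher and lower, against which each list's counts are read, were 1.99% and 2.61% for the hypothalamus, 2.27% and 4.23% for the pituitary, 13.6% and 10.7% for the ovary. Coactivators, which link the bound receptor to transcription, showed no 2-fold difference: 0 of 19 genes over the level of 10 in the hypothalamus, 0 of 18 in the pituitary and 0 of 19 in the ovary. The nearest to the limit was PPARGC1B in the ovary, with 27 reads in estrus and 50 in anestrus and a log2 fold of 0.98. NCOA2, a p160 coactivator of steroid receptors, followed there with 101 and 166 reads and a log2 fold of 0.83. The list's median was 0.03 in the pituitary and 0.05 in the ovary, and both turned negative, to -0.09 and -0.15, with equal library totals.

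The chaperones that hold unliganded receptors likewise had 0 of 15 genes past 2-fold in each tissue, with medians of 0.12, -0.25 and -0.06 in the hypothalamus, pituitary and ovary. FKBP4, a co-chaperone of the progesterone receptor, had 4221 and 2485 reads in the ovary, a log2 fold of -0.65. FKBP5, a glucocorticoid-induced co-chaperone, had 543 and 966 reads in the hypothalamus, a log2 fold of 0.88.

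Corepressors and nuclear receptors that limit steroid receptor action had members past 2-fold in the pituitary and ovary. NR0B1, which encodes the corepressor DAX1, had 55 and 196 reads in the pituitary and was 3.78-fold higher in anestrus (2.79 to 5.19). In the ovary NR0B1 had 78 and 13 reads and was 5.54-fold lower (3.06 to 10.9). NR2F1 and NR2F2, the COUP transcription factors, were 2.37-fold and 2.42-fold lower in the anestrous ovary. In the ovary 3 of 12 list genes were lower and 1 higher, beside 10.7% and 13.6% of all genes. In the pituitary 1 of 12 was higher, beside 2.27%, and in the hypothalamus 0 of 12 passed 2-fold.

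Among factors that open or share estrogen receptor binding sites, 3 of 10 were lower and 1 higher in the ovary, with a list median of -0.71, beside 10.7% and 13.6% of all genes. With equal library totals 5 were lower. FOS, a component of AP-1, was 4.34-fold lower there, with 9853 and 2096 reads. FOXL2, the granulosa cell factor that is also a partner of ESR2, was 3.25-fold lower, with 634 and 180 reads, and RUNX1 was 3.39-fold higher, with 166 and 519. In the pituitary 1 of 9 was lower, GATA6, with 39 and 16 reads. In the hypothalamus GATA3 was 7.81-fold higher, with 7 and 53 reads, and FOXA2, with 20 and 9 reads, was lower with an interval (0.937 to 5.37-fold) that included no difference.

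Other steroid receptors shared the direction of PGR in some tissues only. NR3C1, the glucocorticoid receptor, had 245 and 98 reads in the pituitary and was 2.36-fold lower (1.86 to 3.01), the 1 gene of 5 past 2-fold there. In the ovary NR3C1 stood on the other side, at a ratio of 1.55 (1.33 to 1.80). NR3C2, the mineralocorticoid receptor, had a ratio of 0.654 in the pituitary and 0.608 in the ovary. In the hypothalamus 0 of 5 passed 2-fold. NR3C1 and NR3C2 had ratios of 0.842 and 0.844 there, and the interval of NR3C2 included 1. ESRRA, an orphan receptor related to ESR1, had ratios of 1.22, 0.904 and 1.83 in the hypothalamus, pituitary and ovary, and its interval in the pituitary included 1. ESRRG had ratios of 1.18 and 0.974 in the hypothalamus and pituitary, both with intervals that included 1, and 3 and 2 reads in the ovary. ESRRB had at most 9 reads in a library.

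Of the membrane progesterone receptors and their partners, PGRMC1, PGRMC2 and SERBP1 carried more reads than PGR in every library. PGRMC1, a heme-binding membrane component linked to rapid progesterone action, had 9113 and 9732 reads in the hypothalamus, 6873 and 5092 in those of the pituitary, 6670 and 3738 in those of the ovary. Its log2 folds were 0.14, -0.35 and -0.72, so none reached 2-fold. PGRMC2 had log2 folds of 0.08, -0.18 and -0.15 and SERBP1, a PGRMC1 partner, of -0.04, 0.10 and -0.17. PAQR6, a membrane progestin receptor, was a hypothalamic transcript, with 5521 and 3931 reads there against 165 and 232 for the pituitary and 161 and 71 for the ovary, where it was 2.09-fold lower in anestrus (1.57 to 2.81). In the hypothalamus PAQR5 was 2.66-fold lower, with 33 and 12 reads, and PAQR9 2.70-fold higher, with 13 and 34. PAQR7 had ratios of 1.83, 1.63 and 1.44 in the hypothalamus, pituitary and ovary, and its intervals in the pituitary and ovary included 1. PAQR8 had at most 4 reads in a library. The list thus had 1 gene higher and 1 lower of 7 in the hypothalamus, 0 of 6 in the pituitary and 1 lower of 5 in the ovary.

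Genes known to respond to estrogen did not share one direction. Ovarian counts were 5 of 20 higher and 3 lower, beside 13.6% and 10.7% of all genes, with a median of -0.14. PGR, a receptor row followed here, is itself on this list and is among the 3 lower. With equal library totals 5 were higher and 5 lower. GAL, the galanin precursor, had 1 and 76 reads there. OXTR, the oxytocin receptor, was 8.79-fold higher in anestrus, with 18 and 146 reads. LTF, lactotransferrin, was 8.45-fold higher, with 49 and 382. Chosen after their values were seen, GREB1 and RERG were lower in the ovary, as ESR1 was: GREB1, an ESR1 cofactor and target, was 4.34-fold lower (3.85 to 4.90) with 1555 and 331 reads, and RERG, an estrogen-regulated growth inhibitor, 4.10-fold lower (3.66 to 4.6) with 1647 and 371. In the pituitary, where the main ESR1 row was higher, their log2 folds were -0.27 and -0.99. Of the list, 2 of 18 were higher in the pituitary and 1 lower, beside 2.27% and 4.23% of all genes: MYC 3.78-fold higher with 170 and 607 reads, LTF 2.05-fold higher with 109 and 211, and STC2, a stanniocalcin, 3.24-fold lower with 72 and 21. Equal library totals turned this to 1 higher and 3 lower, with PGR itself among the lower. In the hypothalamus 0 of 18 passed 2-fold, and GAL came nearest, with 354 and 171 reads, 2.01-fold lower by the direct ratio and just inside the limit once the pseudocount is added.

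Of genes known to respond to progesterone, 5 of 14 were at least 2-fold lower in the pituitary and 0 higher, beside 4.23% and 2.27% of all pituitary genes, with a list median of -0.53. IHH, the Indian hedgehog ligand, was 5.31-fold lower with 135 and 24 reads. PRKG2, a cyclic GMP-dependent kinase, was 3.38-fold lower with 269 and 75, and FOXO1 2.44-fold lower with 1921 and 744. In the ovary 7 of 17 were lower and 3 higher, beside 10.7% and 13.6% of all genes, with the same median of -0.53. HAND2, a stromal transcription factor, had 21 and 0 reads there and was at least 6.46-fold lower against a floor of 3 reads in the anestrous library, and at least 4.81-fold by the exact counting interval, which also covers the 21 reads. PRKG2 went the other way in the ovary, with 2 and 175 reads, and AREG, amphiregulin, had 9 and 87. In the hypothalamus 2 of 14 were lower, AREG with 20 and 2 reads and ADAMTS1 with 77 and 19, and 1 was higher, ZBTB16 with 132 and 268. Its median of 0.06 turned to -0.03 with equal library totals.

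Downstream of GPER1, 3 of 16 genes were lower in the pituitary and 0 higher, beside 4.23% and 2.27% of all genes. ADCY1, an adenylyl cyclase, had 35 and 8 reads and was 4.13-fold lower (1.88 to 10.3). MMP9, which takes part in releasing epidermal growth factor receptor ligands, was 3.10-fold lower with 23 and 7 reads. HBEGF, which encodes such a ligand, was 2.56-fold lower with 38 and 14 reads. In the hypothalamus ADCY1 was higher, with 190 and 406 reads, the 1 gene of 15 past 2-fold. In the ovary 2 of 15 were higher, near the 13.6% of all genes, and 3 lower, beside 10.7%, among them ADCY5 (612 and 143 reads), ADCY3 (3752 and 1154) and GNG2 (690 and 2200). The list's medians of 0.0053 in the hypothalamus and 0.01 in the pituitary turned to -0.09 and -0.10 with equal library totals, and the ovarian median was 0.24.

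Genes for making or inactivating the receptors' ligands had well-counted members far past 2-fold in the ovary. In the anestrous ovary STAR, which brings cholesterol to steroid synthesis, was 23.6-fold lower with 50383 and 1966 reads. CYP17A1, needed for androgens, was 14.2-fold lower with 64699 and 4202 reads. CYP19A1, the aromatase that makes estrogens, was 7.23-fold lower with 8994 and 1148 reads. The list had 4 of 13 genes lower and 2 higher there, beside 10.7% and 13.6% of all genes, with a median of -0.14. CYP19A1 was higher in the anestrous hypothalamus by 3.32-fold (2.06 to 5.56), with 23 and 74 reads, the 1 gene of 14 past 2-fold. In the pituitary HSD17B1 was 2.24-fold higher with 51 and 108 reads, and CYP1A1, which hydroxylates estradiol, was 29.3-fold lower (4.88 to 1190) with 31 reads and 1 read. The medians of 0.08 in the hypothalamus and 0.05 in the pituitary turned to -0.01 and -0.06 with equal library totals.

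**Figure D5:**
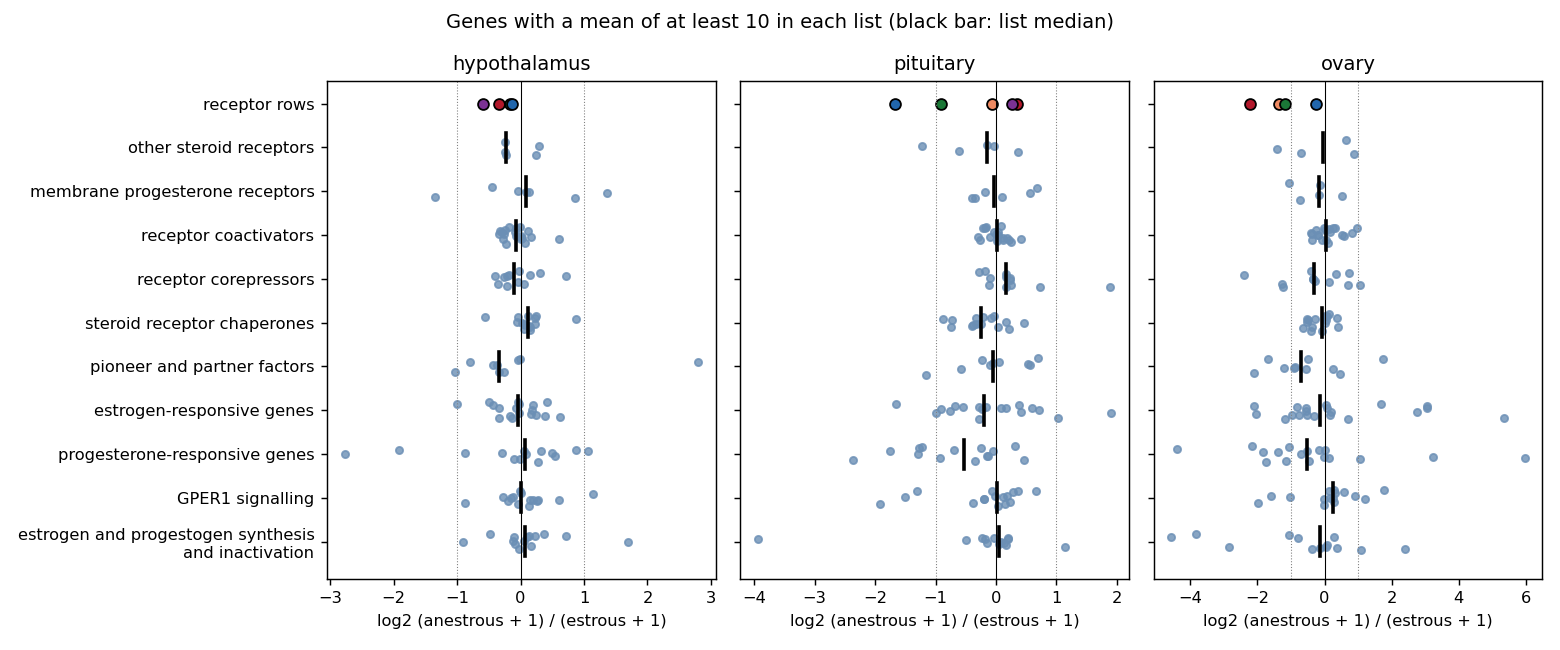
Log2 fold, anestrous over estrous, of each gene with a mean normalised count of at least 10 in the receptor rows and in 10 lists, by tissue; black bars are list medians and dotted lines mark 2-fold. No coactivator or chaperone lies past 2-fold, while the list of synthesis and inactivation genes reaches -4.56 in the ovary, at STAR.

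Named genes with the most similar profile over the 6 libraries were found by the root mean square distance between log2(RPM + 1) values, each centred on its own mean, among 12322 genes. For the main ESR1 row the nearest were ZACN at 0.16, EVPL at 0.31, TTC39A at 0.32, SFI1 at 0.33 and FRZB at 0.34. ZACN had 5 and 3 reads in the estrous and anestrous hypothalamus, 66 and 100 in those of the pituitary, 131 and 23 in those of the ovary, so that it too was highest in the estrous ovary and second in the anestrous pituitary. For PGR they were PRSS53 at 0.22, TP53I11 at 0.25, FREM2 at 0.29, CNKSR1 at 0.34 and CASR at 0.34. PRSS53 had 364 and 250 reads in the pituitary, 114 and 36 in the ovary, and 13 and 4 in the hypothalamus.

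For GPER1 the nearest were ADRA2C at 0.18, ANKRD9 at 0.21, HIVEP2 at 0.21, FEM1B at 0.23 and ARL2BP at 0.25. ADRA2C, the alpha-2C adrenergic receptor, had 53 and 41 reads in the hypothalamus, 20 and 1 in those of the pituitary, 9 and 0 in those of the ovary. Its reads fell more steeply than those of GPER1 in the pituitary and ovary, so its small distance rests in part on the added 1. The added 1 bears likewise on ZACN, with 5 and 3 reads in the hypothalamus, and on CNKSR1, with 0 and 0 there. ESR2 (NPW, FBXW4, PSMC5, TMEM170A and GOLM2) and the second ESR1 row (LUC7L, TUT1, ZNF77, ECI1 and HAT1) had nearest genes at 0.07 to 0.10. The levels of these 2 rows themselves reached at most 2.07 RPM, near the added 1. The choice of measure matters here: of the 5 nearest genes by Pearson correlation, 2 were shared for the main ESR1 row, 1 each for the second ESR1 row, ESR2 and GPER1, and 0 for PGR.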

How the data were processed

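The authors deposited 3 tables, 1 per tissue, each with a size-factor normalised count (a signal) for the estrous and anestrous library, a p-value and an adjusted p-value. Per the submitters' processing notes TopHat2 2.1.0 was used. The counter, genome build, annotation and strand setting are not given in the sources used here. Reads of overlapping genes cannot be told apart. Whole reads were recovered from the steps of the deposited normalised counts: 100% of values fell within 0.01 of a read.

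Ratios use the deposited normalised counts with exact conditional binomial (Clopper-Pearson) 95% intervals from recovered reads, and levels use exact Poisson intervals (Python 3.11.15, scipy 1.17.1). Levels across tissues rest on RPM, which was not corrected for differences in composition between tissues. Settings were a pseudocount of 1, a mean of at least 10 and a fold of 2. The text names every receptor row, up to 3 genes per list and tissue with the largest fold, the members of the 2 lists of other steroid and membrane progesterone receptors (1 of them is not reported here), and the 5 nearest genes per row. Members and lists were chosen with earlier results of these data known. Of 163 pathway genes 147 were found, and of 98 markers 85. Names came from the tables for 12765 of 19465 genes and, with a gene name table, for 14422. The ID of 4 of the 5 receptor rows was in that table.

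As an alternative added after seeing the data, a count test was run on the recovered reads with tissue as a block, although the 3 tissues of a state are no replicates. The edgeR 4.0.16 quasi-likelihood test called 0 of 14444 genes, with 542 at an unadjusted p-value under 0.05, and DESeq2 1.42.0 (R 4.3.3) called 46 of 16887. Other scalings, pseudocounts and levels were tried, and the scripts were tested on simulated data.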

Additional observations from a re-analysis of the deposited data

Results flagged for a closer look

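The main ESR1 row moved in opposite directions in different tissues. Its log2 fold, anestrous over estrous, was 0.35 in the pituitary against -0.34 in the hypothalamus, and 0.35 in the pituitary against -2.21 in the ovary. With 1 library per tissue and state, the difference between tissues was not tested. The directions were the same with equal library totals, with a trimmed mean of log ratios and with the 2 ESR1 rows summed.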

How the results depend on the processing

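No paired analysis was possible within a tissue because each group holds 1 library, so the only fit over pairs is the added count test with tissue as a block. Of 66 alternatives for the 15 receptor folds, 65 stayed within the counting interval. For rows with few reads that interval is too wide for this to say much: for ESR2 in the ovary it ran from a log2 fold of -3.31 to 1.74. The main ESR1 row in the ovary moved to a log2 fold of -2.41 with equal library totals. The second ESR1 row in the pituitary changed sign, from -0.06 to 0.34, when both rows were summed. With no level, levels of 50 and 200, and the authors' adjusted p-value of at most 0.05 as a further condition, the genes past 2-fold numbered 845, 147, 75 and 75 higher and 877, 119, 29 and 43 lower in the hypothalamus, and 965, 129, 48 and 38 higher and 1139, 204, 84 and 62 lower in the pituitary. In the ovary 2223, 867, 501 and 15 were lower, and 880 were higher at the level of 200 and 93 with the adjusted p-value. No receptor row met the adjusted p-value. At the level of 50, 2 ovarian rows (the main ESR1 row and PGR) and GPER1 in the pituitary were still counted; at 200, the main ESR1 row alone. Equal library totals shifted the typical log2 fold by -0.09, -0.12 and -0.20 in the hypothalamus, pituitary and ovary. In the hypothalamus they moved the share of higher among called genes from 43.3% (271 higher, 355 lower) to 32.7% (216 and 445), and in the ovary from 55.9% (1795 and 1418) to 42.3% (1387 and 1891). The added count test by DESeq2 called 46 genes, 23 in each direction, where edgeR called 0, and no receptor row by either. Among 436 alternatives for 109 list gene folds, 30 left the counting interval and 2 changed sign. The order of the 6 libraries kept all 15 pairs with a trimmed mean of log ratios, except for ESR2, with 14. Depth limits ESR2 and the second ESR1 row in every tissue, and PGR in the hypothalamus.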

Other observations

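The deposited tables annotate the 2 ESR1 rows unequally. The main row, with 168 to 1951 reads per library, carries 0 Gene Ontology terms and 0 pathways. The second row, with 3 to 32 reads, carries 20 terms and 5 pathways, among them KEGG estrogen signalling. A reader of the estrogen signalling pathway through these annotations therefore meets ESR1 only at a log2 fold of -0.06 in the pituitary and -1.35 in the ovary, where the main row stands at 0.35 and -2.21. ESR2 carries 10 terms and 2 pathways, PGR 13 and 2, and GPER1 50 and 1.

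That KEGG list, taken from the deposited tables after the data were seen, names 67 genes. In the pituitary 6 of 61 over the level of 10 were at least 2-fold lower and 0 higher, in the hypothalamus 0 of 62 lower and 2 higher, and in the ovary 10 of 59 lower and 8 higher. The second ESR1 row, ESR2 and GPER1 belong to the list. GPER1 is thus among the 6 lower in the pituitary, and the second ESR1 row among the 10 lower in the ovary. The shares of all genes lower and higher were 4.23% and 2.27%, 2.61% and 1.99%, and 10.7% and 13.6% in these tissues, so the ovarian count of higher genes is at the share of all genes. Its median log2 fold was 0.0012, 0.0035 and 0.17 in these tissues. The list of progesterone-mediated oocyte maturation names 57 genes, of which 9 of 54 were lower and 3 higher in the ovary, with a median of -0.10.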
